A study of Arabidopsis thaliana with 12 samples.

Results

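The 8 genes described here encode transcription factors of the CBF (DREB1) and DREB2 groups of Arabidopsis thaliana. They were chosen by name as the best-known stress regulators of these groups: CBF1, CBF2, CBF3, CBF4, DDF1, DREB2A, DREB2B and DREB2C, out of 69383 features counted. Earlier results of these data were known when they were chosen. They were followed in 12-day-old whole seedlings of 2 genotypes before (0 h) and 4 h after a spray with 10 µM abscisic acid (ABA), the plant hormone of drought and salt stress. The groups were RNAi-MARS at 4 h, RNAi-MARS at 0 h, Col-0 at 4 h and Col-0 at 0 h, with 3 libraries each, named A, B and C. RNAi-MARS carries an RNA interference construct against MARS, a long non-coding RNA, and Col-0 is the wild type. The promoter of the construct is not given in the sources used here, and the design text writes "lines" beside a single line number. All groups were grown alike on medium with sucrose. No group was sprayed without ABA, so ABA, the spraying itself and the hours between 0 h and 4 h cannot be told apart, and "ABA response" below means the change from 0 h to 4 h.

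Both groups of factors carry an AP2/ERF DNA-binding domain and bind the dehydration-responsive element (DRE, also called CRT), whose core letters are CCGAC. CBF1, CBF2 and CBF3 are known as rapid cold-induced activators of freezing tolerance genes, CBF4 as a drought and ABA-induced relative, and DDF1 as a salt-induced relative that lowers gibberellin. DREB2A and DREB2B are known from drought, salt and heat, DREB2C from heat. The DREB2A protein is unstable in unstressed plants, so its transcript level is not its activity. ABA acts on many genes through bZIP factors (AREB1, AREB2, ABF3) that bind the ABA-responsive element (ABRE), whose core letters are ACGTG.

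Libraries held 19020202 to 38787804 counts. MARS, the target of the construct, stood at 2.30, 1.34 and 4.11 CPM in RNAi-MARS at 4 h and at 0.196, 0.156 and 0.167 CPM in RNAi-MARS at 0 h (libraries A, B and C, here and below). Col-0 libraries had 21.3, 9.09 and 20.1 CPM of it at 4 h and 6.63, 2.60 and 0.344 CPM at 0 h, so every RNAi-MARS library was below every Col-0 library of its time. CPM is a count relative to the total of its library, with library totals scaled by TMM factors. Root and shoot marker genes were present in all libraries. The labels do not tell whether libraries of the same group are from separate cultures; p-values therefore reflect the spread between libraries, part of which may be technical. In RNA from whole seedlings, fewer cells of a type and less RNA per cell cannot be told apart.

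The genes lie on all 5 chromosomes, and CBF1 to CBF3 form a tandem cluster. In TAIR10.1, CBF2 (AT4G25470, chromosome 4, 13015250 to 13016235), CBF3 (AT4G25480, 13018010 to 13019400) and CBF1 (AT4G25490, 13021780 to 13022996) all lie on the minus strand within 7.75 kb. The gaps between them are 1774 and 2379 bp, and each has a single annotated exon. CBF4 (AT5G51990, chromosome 5, 21116877 to 21117860) and DDF1 (AT1G12610, chromosome 1, 4289883 to 4291017) also lie on the minus strand. DREB2A (AT5G05410, chromosome 5, 1602205 to 1604112) and DREB2B (AT3G11020, chromosome 3, 3455355 to 3457342) lie on the plus strand. DREB2C (AT2G40340, chromosome 2, 16848160 to 16850494) lies on the minus strand and has 6 annotated transcripts.

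The coding sequences of CBF1, CBF2 and CBF3 were 87.3% to 87.5% identical pairwise, with identical runs of up to 68 bases between CBF1 and CBF2, 33 between CBF1 and CBF3, and 57 between CBF2 and CBF3. CBF4 matched them at 70.8% to 73.3% and DDF1 at 63.8% to 65.5%, while DREB2A matched DREB2B at 74.7% and DREB2C at 68.3%. Reads that fall within the identical runs of CBF1 to CBF3 could be shared between those genes, and how such reads were counted is not given in the sources used here. Of the 96 deposited counts of the 8 genes, 1 was not a whole number, that of DREB2C in library B of Col-0 at 4 h. Opposite-strand genes overlap CBF3 by 29 bp, DREB2A by 73 bp and DREB2B by 1086 bp, and without a stated strand setting their reads cannot be told apart.

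The 250 bases before the annotated start of 5 of the genes are shown because all 5 rose with ABA and 4 of them hold the letters through which ABA is known to act. They are read 5′ to 3′ from the RefSeq genome TAIR10.1, and capitals mark the ABRE core ACGTG or its complement CACGT. CBF3 is shown because it had none and had the largest fitted log2 change in both genotypes. No DRE core was found in any of the 8.
DREB2A, chr5:1601955-1602204, plus strand: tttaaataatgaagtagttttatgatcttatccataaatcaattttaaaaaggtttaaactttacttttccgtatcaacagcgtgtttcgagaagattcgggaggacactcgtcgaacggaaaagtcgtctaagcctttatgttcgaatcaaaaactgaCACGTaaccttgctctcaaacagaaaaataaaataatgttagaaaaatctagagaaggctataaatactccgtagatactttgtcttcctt
DREB2B, chr3:3455105-3455354, plus strand: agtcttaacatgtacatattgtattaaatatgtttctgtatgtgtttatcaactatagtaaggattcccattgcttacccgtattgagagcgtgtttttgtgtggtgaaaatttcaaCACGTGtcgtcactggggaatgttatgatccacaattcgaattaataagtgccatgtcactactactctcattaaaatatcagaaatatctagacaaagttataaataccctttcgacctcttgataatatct
DREB2C, chr2:16850495-16850744, minus strand: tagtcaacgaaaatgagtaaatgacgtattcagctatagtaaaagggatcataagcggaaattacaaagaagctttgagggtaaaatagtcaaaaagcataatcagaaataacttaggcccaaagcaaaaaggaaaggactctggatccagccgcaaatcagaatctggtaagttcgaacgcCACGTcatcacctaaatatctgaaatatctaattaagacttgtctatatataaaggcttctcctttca
CBF2, chr4:13016236-13016485, minus strand: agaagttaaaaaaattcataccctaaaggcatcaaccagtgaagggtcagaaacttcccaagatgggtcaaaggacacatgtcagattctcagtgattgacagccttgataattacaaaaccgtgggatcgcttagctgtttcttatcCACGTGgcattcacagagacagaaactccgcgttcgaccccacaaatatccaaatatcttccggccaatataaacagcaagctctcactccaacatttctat
CBF3, chr4:13019401-13019650, minus strand: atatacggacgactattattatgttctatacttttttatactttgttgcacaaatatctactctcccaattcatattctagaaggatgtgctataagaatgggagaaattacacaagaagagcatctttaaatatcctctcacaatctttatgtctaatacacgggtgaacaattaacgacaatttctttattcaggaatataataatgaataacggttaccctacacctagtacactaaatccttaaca
In DREB2B and CBF2 the capitals form the palindrome CACGTG (the G-box), which holds an ABRE core on each strand, so the counts overlap. CBF4 had this palindrome too, while CBF1 and DDF1 had no ABRE core. An ABRE core on either strand was thus found in 5 of the 8 genes and in 22.9% of 27443 promoters of the same length, those of nuclear protein-coding genes. Its first letter lay 91 bases before the start of DREB2A, 68 before DREB2C, 133 and 132 before DREB2B, 102 and 101 before CBF2, and 110 and 109 before CBF4. The evening element AAATATCT, known from clock-controlled genes, was found in CBF1, CBF2, CBF3, DREB2B and DREB2C, against 4.79% of all promoters. The letters CCGAC were in 0 of the 8 against 12.0%, the CAMTA core CGCG in CBF2 and DDF1 against 10.1%, and the heat shock element GAANNTTC in CBF2 and DREB2A against 9.55%. In 1000 bases an ABRE core was present in 7 of 8 (54.4% of all promoters), the CAMTA core in 7 (32.2%), the evening element in 6 (15.3%), the heat shock element in 4 (33.2%) and CCGAC in DREB2B and DREB2C alone (37.4%). A match is a string of letters and not a shown binding site.

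The response to ABA was the main pattern. All 3 DREB2 genes, CBF2, CBF3 and CBF4 had every 4 h library above every 0 h library in both genotypes. CBF1 and DDF1 did so in RNAi-MARS alone. The edgeR quasi-likelihood test was run on all 22465 features that passed a filter on low counts, and an adjusted p (Benjamini-Hochberg) under 0.05 counts as a call. Of the 8 genes, 7 passed the filter, and CBF4 did not. Called higher at 4 h were 6 of 7 in RNAi-MARS, where 21.6% of all tested features were called higher, and 5 of 7 in Col-0, where 20.7% were. The filter asks for 0.373 CPM, 10 counts at the median library size, in 3 libraries. CBF2 and DREB2A met it at 0 h and at 4 h, while CBF1, CBF3, DDF1, DREB2B and DREB2C met it only through their 4 h libraries. These 5 of the 7 had to be higher at 4 h to be tested, so the counts of called genes are a description and carry no weight of their own against the shares of all features. Nor does the edgeR p of these 5 for the ABA response, given below, carry weight of its own. None of the 7 was called lower, against 21.0% of features in RNAi-MARS and 19.3% in Col-0. Without the filter CBF4 was tested as well, and 7 of 8 were called in RNAi-MARS and 6 of 8 in Col-0. Of all 32332 features in that fit, 4732 were called higher in RNAi-MARS and 4367 in Col-0.

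**Figure D1:**
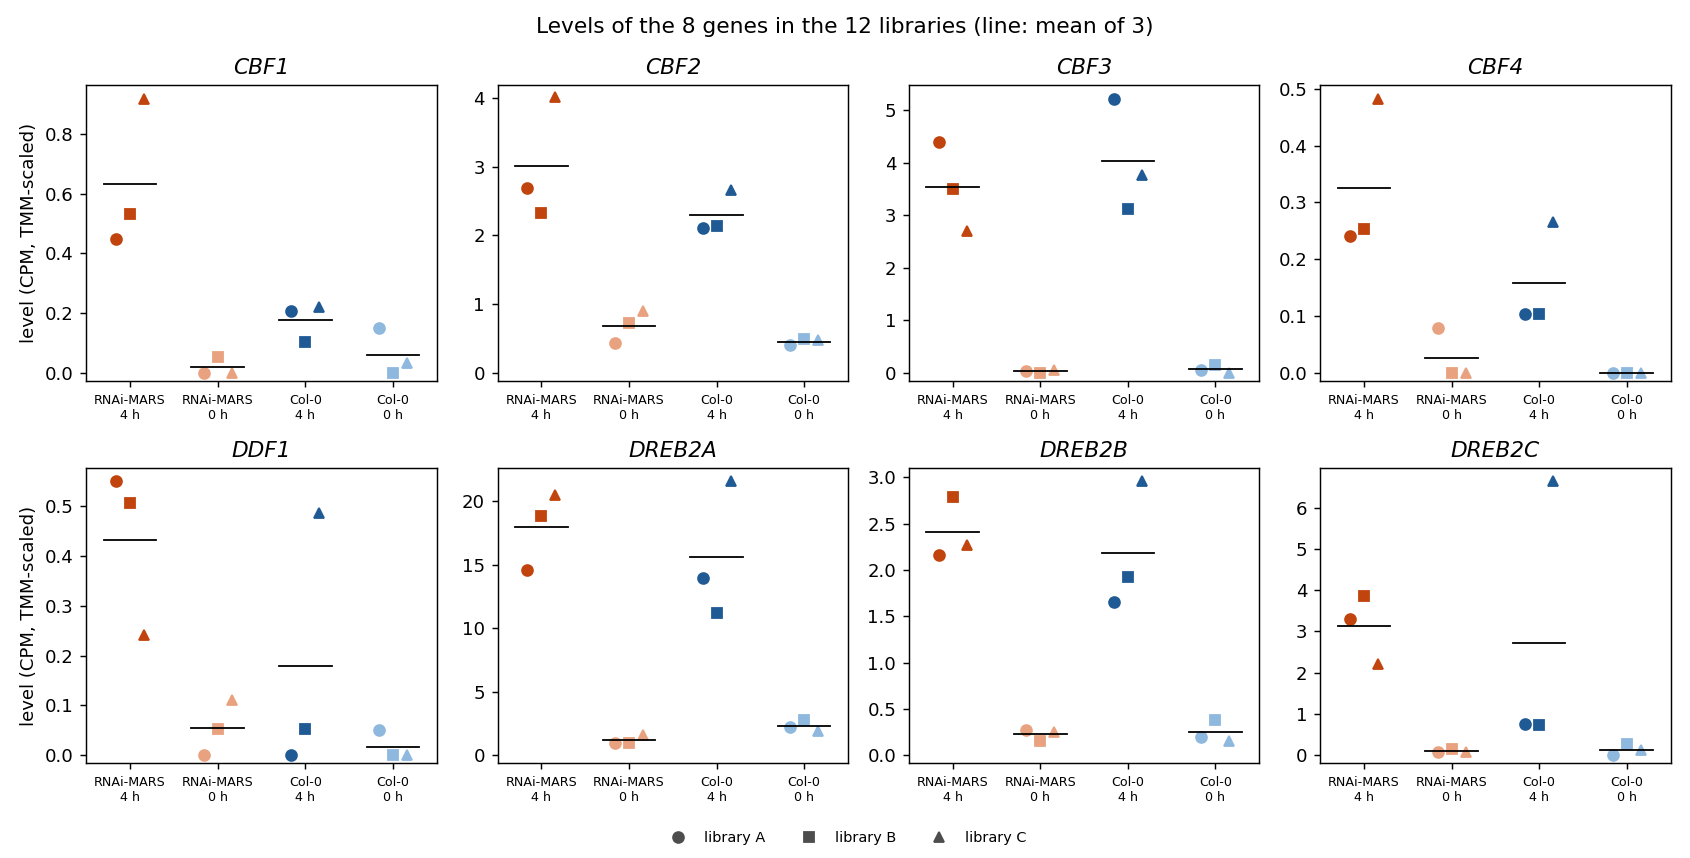
Level (CPM, TMM-scaled, linear axis) of each of the 8 genes in every library, by group; symbols are libraries A, B and C and the line is the mean of 3. DREB2A, DREB2B, CBF2 and CBF3 at 4 h lie above all 0 h libraries in both genotypes, and DREB2C in Col-0 at 4 h holds a library at 6.64 CPM beside others at 0.760 and 0.727 CPM.

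DREB2A, an activator of drought and heat genes, was the most abundant of the 8. It had 14.6, 18.8 and 20.5 CPM in RNAi-MARS at 4 h and 0.979, 0.985 and 1.59 CPM in RNAi-MARS at 0 h. In Col-0 it had 13.9, 11.2 and 21.6 CPM at 4 h and 2.24, 2.77 and 1.94 CPM at 0 h. All 4 h libraries were above all 0 h libraries, and the 0 h libraries of RNAi-MARS were all below those of Col-0. The log2 change was 3.88 ± 0.29 in RNAi-MARS (SE, adjusted p = 3.14e-06), a 14.8-fold rise, and 2.75 ± 0.27 in Col-0 (adjusted p = 2.13e-05), a 6.72-fold rise. Its neighbour AT5G05420 on the other strand fell by 1.41 ± 0.47 in RNAi-MARS and by 1.64 ± 0.49 in Col-0 on the log2 scale (adjusted p = 0.0319 and 0.0200), opposite to DREB2A.

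DREB2B, the close relative of DREB2A, was lower in level and moved the same way. It had 2.17, 2.79 and 2.27 CPM in RNAi-MARS at 4 h, against 0.274, 0.156 and 0.251 CPM at 0 h. In Col-0 the values were 1.66, 1.92 and 2.97 CPM at 4 h, against 0.199, 0.381 and 0.156 CPM at 0 h. The times did not overlap in either genotype, and the genotypes overlapped at both times. The log2 change was 3.35 ± 0.37 in RNAi-MARS (adjusted p = 3.37e-05) and 3.12 ± 0.37 in Col-0 (adjusted p = 6.56e-05). As DREB2B passed the filter only through 4 h libraries, its p carries no weight of its own. AT3G11030, which overlaps DREB2B by 1086 bp on the other strand, kept between 10.5 and 12.9 CPM in the 12 libraries, with log2 changes of 0.03 in RNAi-MARS and -0.10 in Col-0 that were not called.

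DREB2C, known from heat stress, rose in both genotypes, but its size in Col-0 rested on 1 library. It had 3.30, 3.87 and 2.22 CPM in RNAi-MARS at 4 h, against 0.0783, 0.156 and 0.0836 CPM at 0 h. In Col-0 the levels were 0.760, 0.727 and 6.64 CPM at 4 h, against 0, 0.277 and 0.125 CPM at 0 h. The RNAi-MARS libraries at 4 h lay close together, while library C of Col-0 stood far above libraries A and B. The log2 change was 4.91 ± 1.06 in RNAi-MARS (adjusted p = 0.00369) and 4.18 ± 1.00 in Col-0 (adjusted p = 0.00726). DREB2C passed the filter only through 4 h libraries, so its p carries no weight of its own. Without library C of Col-0 at 4 h the Col-0 value was 2.33 ± 0.62 (adjusted p = 0.0148), and without library B of Col-0 at 0 h it was 5.10 (adjusted p = 0.0148). It remained called in both cases, and in a fit of the Col-0 libraries alone the adjusted p was 0.04998.

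That library also had the highest sums of heat shock and of touch genes. The 10 genes of a heat shock list summed to 460, 376 and 640 CPM in Col-0 at 4 h and to 398, 252 and 199 CPM in Col-0 at 0 h. In RNAi-MARS they summed to 313, 340 and 370 CPM at 4 h and to 149, 162 and 165 CPM at 0 h. Not every gene of the list was highest in that library. The chaperone gene HSP101, named after its values were seen, had 25.7, 20.9 and 80.6 CPM in Col-0 at 4 h, while HSP70 had 317, 241 and 265 CPM. The 8 genes of a touch list summed to 175, 180 and 477 CPM in Col-0 at 4 h, against 304, 400 and 386 CPM at 0 h; in RNAi-MARS they summed to 192, 265 and 300 CPM at 4 h and to 351, 435 and 455 CPM at 0 h. The touch genes were split too, in examples named after their values were seen. In library C of Col-0 at 4 h TCH3 had 167 CPM, the highest of the 12, while TCH4 had 98.1 and TCH2 36.3 CPM. In RNAi-MARS at 0 h TCH4 had 203 CPM in library B and TCH2 50.6 CPM in library C. No gene of either list was at 0 in a whole group. Library C of Col-0 at 4 h was thus the highest of the 12 for the sums of both lists and for all 3 DREB2 genes, DREB2A at 21.6 and DREB2B at 2.97 CPM included. Without it the Col-0 log2 change was 2.44 for DREB2A and 2.83 for DREB2B, and 2.33 for DREB2C, as given above.

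**Figure D2:**
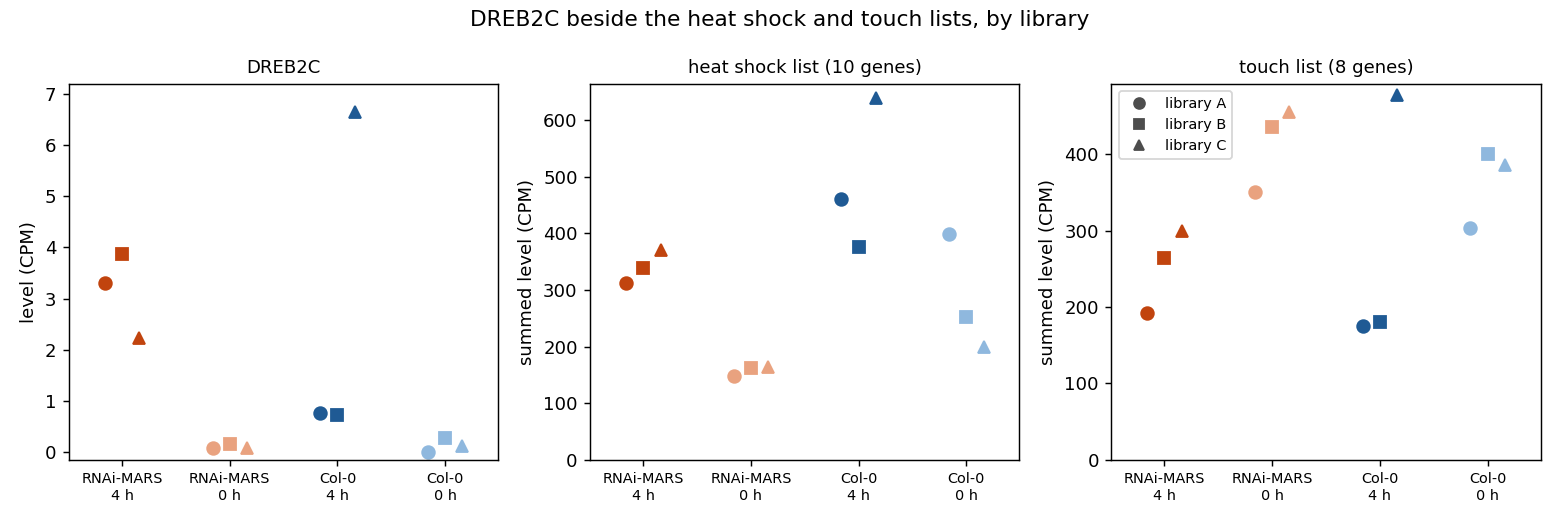
DREB2C level and the summed levels of the heat shock list (10 genes) and the touch list (8 genes) in each library (CPM, linear axes), by group; symbols are libraries A, B and C. Library C of Col-0 at 4 h is the highest point in all 3 panels, at 6.64, 640 and 477 CPM.

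CBF2, a cold-induced activator, was the only CBF gene counted in every library before ABA. It had 2.68, 2.33 and 4.01 CPM in RNAi-MARS at 4 h, against 0.431, 0.726 and 0.891 CPM at 0 h. The Col-0 libraries had 2.11, 2.13 and 2.66 CPM at 4 h, against 0.399, 0.485 and 0.469 CPM at 0 h. The times were apart in both genotypes. The log2 change was 2.11 ± 0.30 in RNAi-MARS (adjusted p = 0.000199) and 2.33 ± 0.31 in Col-0 (adjusted p = 0.000163).

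CBF3 was nearly absent before ABA and exceeded 2.7 CPM in all libraries after it. It had 4.4, 3.5 and 2.71 CPM in RNAi-MARS at 4 h, against 0.0392, 0 and 0.0557 CPM at 0 h. In Col-0 it had 5.22, 3.12 and 3.76 CPM at 4 h, against 0.0499, 0.139 and 0 CPM at 0 h. The 0 h libraries held 3 counts in RNAi-MARS and 5 in Col-0, against 336 and 296 counts at 4 h. The ratio of the summed levels was 105 in RNAi-MARS (exact 95% counting interval 35.7 to 513) and 69.9 in Col-0 (29.6 to 217). The fitted log2 change was 6.43 ± 0.62 in RNAi-MARS (adjusted p = 1.38e-05) and 5.93 ± 0.57 in Col-0 (adjusted p = 1.64e-05). As CBF3 passed the filter only through 4 h libraries, its p carries no weight of its own. With so few counts at 0 h its size moved with single libraries: it was 7.04 in RNAi-MARS without library C at 0 h, and in Col-0 7.39 without library B and 5.27 without library C at 0 h, called each time.

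CBF1, the third gene of the cluster, was far below its neighbours at 4 h. At 0 h it was low like CBF3, with 4 counts against 5 in Col-0 and 1 against 3 in RNAi-MARS. It had 0.447, 0.530 and 0.918 CPM in RNAi-MARS at 4 h, against 0, 0.0519 and 0 CPM at 0 h. Col-0 seedlings had 0.207, 0.104 and 0.221 CPM at 4 h, against 0.150, 0 and 0.0313 CPM at 0 h. RNAi-MARS at 4 h was above all other libraries, and the Col-0 times overlapped. CBF1 passed the filter through RNAi-MARS at 4 h alone, so its p in RNAi-MARS carries no weight of its own. The log2 change was 5.17 ± 0.95 in RNAi-MARS (adjusted p = 0.00113), resting on 55 counts at 4 h and 1 at 0 h, a ratio of 51.7 with a counting interval of 8.90 to 2080. In Col-0 it was 1.75 ± 0.90 (adjusted p = 0.144), from 13 and 4 counts, a ratio of 3.84 (1.19 to 16.2). The RNAi-MARS value was 7.12 without library B and 4.51 without library C of RNAi-MARS at 0 h, and 4.42 with limma-voom, called each time. The Col-0 value ranged from 1.14 without library B of Col-0 at 0 h (adjusted p = 0.344) to 3.16 without library A of Col-0 at 0 h, where alone it was called (adjusted p = 0.0428).

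CBF4, the relative known for induction by drought and ABA, was too low for the filter. It had 0.241, 0.253 and 0.483 CPM in RNAi-MARS at 4 h, against 0.0783, 0 and 0 CPM at 0 h. In Col-0 the values were 0.104, 0.104 and 0.266 CPM at 4 h. No count was found at 0 h, where the exact 95% counting interval over the group reached up to 0.0440 CPM. The times did not overlap in either genotype. Summed levels at 4 h were 13.2 times those at 0 h in RNAi-MARS (28 and 2 counts, interval 3.32 to 114). In Col-0 the ratio was 4.33, from 11 counts at 4 h set against a floor of 3 counts over the group at 0 h. That ratio carries no interval, so a smaller one is possible. Without the filter edgeR called CBF4 in both genotypes (adjusted p = 0.0149 in RNAi-MARS and 0.0184 in Col-0).

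DDF1, the salt-induced relative, was as low and less even. It had 0.550, 0.507 and 0.242 CPM in RNAi-MARS at 4 h, against 0, 0.0519 and 0.111 CPM at 0 h. In Col-0 it had 0, 0.0520 and 0.487 CPM at 4 h, against 0.0499, 0 and 0 CPM at 0 h. The times were apart in RNAi-MARS and overlapped in Col-0, where 11 of the 12 counts at 4 h came from library C. The log2 change was 2.79 ± 1.05 in RNAi-MARS (adjusted p = 0.0513) and 3.38 ± 1.58 in Col-0 (adjusted p = 0.112), not called in either. DDF1 passed the filter only through 4 h libraries, so a low p here carries no weight of its own. The RNAi-MARS value was called with limma-voom (adjusted p = 0.0341), without library A (0.0268) and without library C (0.0151) of Col-0 at 4 h. All groups share an estimate of spread, and the cause of these changes was not tested. The Col-0 value rested on library C of Col-0 at 4 h, without which it was 0.59 (adjusted p = 0.837). It was called only without library A of Col-0 at 4 h (4.05, adjusted p = 0.0375), and was 5.31 without library A of Col-0 at 0 h (adjusted p = 0.110).

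**Figure D3:**
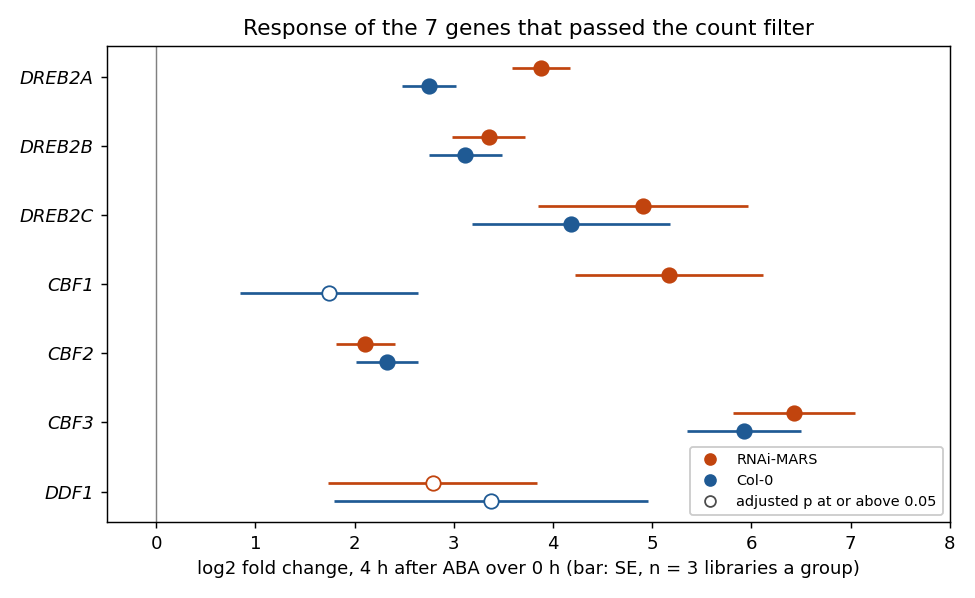
Fitted log2 fold change, 4 h over 0 h, of the 7 genes that passed the filter, RNAi-MARS above Col-0 for each gene; bars are SE from 3 libraries a group and open circles have an adjusted p of 0.05 or more. CBF3 has the largest change in both genotypes (6.43 and 5.93), and CBF1 the widest gap between them (5.17 and 1.75). CBF1 passed the filter through RNAi-MARS at 4 h alone. CBF3, DDF1, DREB2B and DREB2C passed it only through 4 h libraries.

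Every RNAi-MARS library at 4 h was above every RNAi-MARS library at 0 h for 7 of the 7 tested genes, where 26.0% of tested features showed this, and for CBF4, which was not tested. In Col-0 it held for 5 of 7, where 26.4% of tested features showed it, and for CBF4, the exceptions being CBF1 and DDF1. As 5 of the 7 passed the filter through 4 h alone, nothing is read from these counts against the shares. With the time labels permuted within each genotype, the 2-sided exact test over both genotypes gave p = 0.005, the smallest that 400 assignments allow, for CBF2, CBF3, CBF4 and the 3 DREB2 genes. The exact p was 0.01 for CBF1 and 0.02 for DDF1, not adjusted over the 8 genes. Mean log2 differences (prior count of 2) were between 1.5 for DDF1 and 5.06 for CBF3. Without library B or C of Col-0 at 0 h the exact p of DDF1 was 0.05.

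Set on a common scale per kilobase of exon, the genes kept a similar order in both genotypes at 4 h. In RNAi-MARS DREB2A had 10.9 ± 1.85 CPM per kb (SD, n = 3), CBF2 3.05 ± 0.90, CBF3 2.54 ± 0.61, DREB2B 1.54 ± 0.21 and DREB2C 1.34 ± 0.36. CBF1 had 0.519 ± 0.207, DDF1 0.381 ± 0.147 and CBF4 0.331 ± 0.139 CPM per kb. In Col-0 DREB2A had 9.44 ± 3.26 CPM per kb, CBF3 2.9 ± 0.77, CBF2 2.33 ± 0.31, DREB2B 1.40 ± 0.44 and DREB2C 1.16 ± 1.46. CBF4, DDF1 and CBF1 followed at 0.160 ± 0.095, 0.158 ± 0.236 and 0.146 ± 0.053 CPM per kb. In both genotypes the libraries of CBF2 and CBF3 overlapped, as did those of DREB2B and DREB2C and those of neighbours among the 3 lowest genes, while DREB2A stood clear of all others.

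At 0 h DREB2A and CBF2 led. In RNAi-MARS at 0 h they overlapped at 0.717 ± 0.212 and 0.692 ± 0.237 CPM per kb. In Col-0 at 0 h DREB2A had 1.40 ± 0.26 CPM per kb and CBF2 0.457 ± 0.047, without overlap. DREB2B came next with 0.145 ± 0.040 in RNAi-MARS and 0.157 ± 0.076 in Col-0, and the other 5 genes were at or below 0.0574 CPM per kb on average.

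The make-up of the CBF cluster changed between the times. This comparison was chosen after the values were seen. CBF3 made up 58.4%, 55.1% and 35.4% of the CBF1 to CBF3 counts in RNAi-MARS at 4 h, against 8.33%, 0% and 5.88% at 0 h. In Col-0 its share was 69.3%, 58.3% and 56.7% at 4 h, against 8.33%, 22.2% and 0% at 0 h. No library at 4 h overlapped with one at 0 h. CBF2 held most of the rest, with 35.6%, 36.6% and 52.5% in RNAi-MARS at 4 h, against 91.7%, 93.3% and 94.1% at 0 h. In Col-0 CBF2 held 28.0%, 39.8% and 40.0% at 4 h, against 66.7%, 77.8% and 93.8% at 0 h.

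Over a group, CBF3 took 336 of 653 counts in RNAi-MARS at 4 h (51.5%, exact binomial 95% interval 47.5 to 55.4) and 3 of 61 at 0 h (4.92%, 1.03 to 13.7). In Col-0 it took 296 of 471 at 4 h (62.8%, 58.3 to 67.2) and 5 of 46 at 0 h (10.9%, 3.62 to 23.6). These intervals cover counting error only. CBF2 itself rose in level, as given above, so its lower share goes with the larger rise of CBF3. The shares are of counts and so favour the longer CBF3, whose annotated exon has 1391 bases against 986 in CBF2 and 1217 in CBF1. Per kilobase of exon, CBF3 held 50.6%, 47.4% and 28.7% in RNAi-MARS at 4 h and at most 6.05% at 0 h, and 61.9%, 49.9% and 48.5% in Col-0 at 4 h and at most 16.8% at 0 h. On that scale CBF2 was above CBF3 in library C of RNAi-MARS at 4 h, with 60.1%. The shares were not tested, since they were picked with the values known. Any reads shared between these similar genes could alter the shares.

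**Figure D4:**
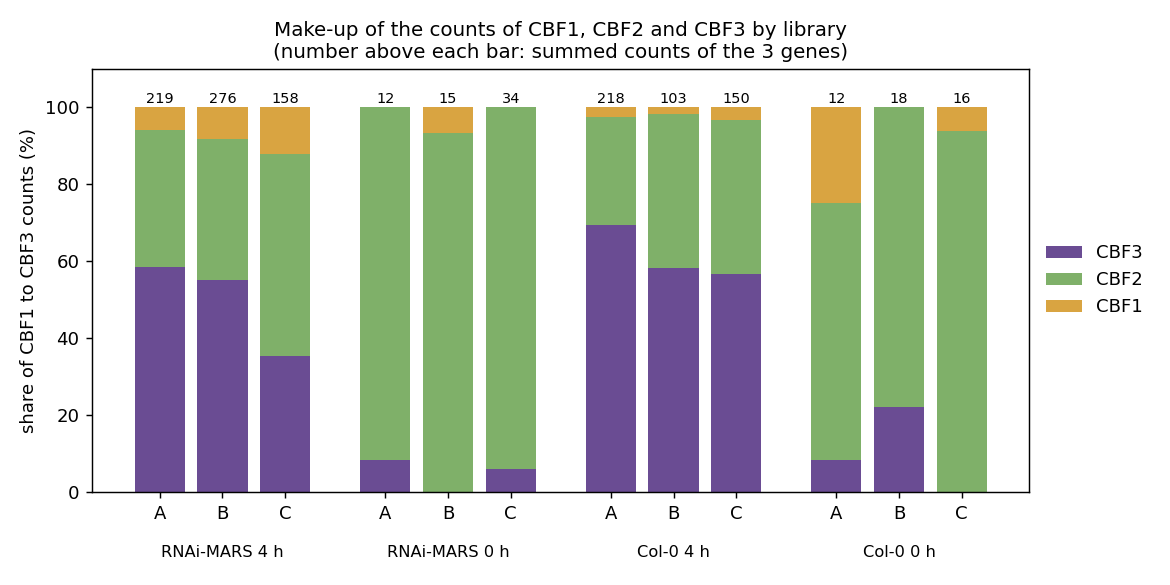
Share of the summed CBF1, CBF2 and CBF3 counts (not per length) held by each gene (%, stacked) in each library, by group; numbers above the bars are the summed counts. CBF3 holds 35.4% to 69.3% at 4 h and 0% to 22.2% at 0 h, where the bars rest on 12 to 34 counts.

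The study asks how lowering MARS affects the ABA response, and none of the 7 tested genes was called between genotypes at either time (0.089% of all features were called at each time). That share is 20 features, which became 55 at 4 h without library C of Col-0 at 4 h and 13 without library A, none of the 8 genes among them. At 0 h the unadjusted edgeR p was under 0.05 for 1 gene, DREB2A, and at 4 h for 1 gene, CBF1. The share of all features under this unadjusted cut was not computed, so nothing is read from such counts here or below. DESeq2 and limma-voom also called none. DREB2A at 0 h averaged 1.18 ± 0.35 CPM in RNAi-MARS and 2.32 ± 0.42 CPM in Col-0 (SD, n = 3 each), a log2 difference of -0.93 ± 0.30 (unadjusted p = 0.00934, adjusted p = 0.996 by edgeR). It was the only gene of the 8 whose RNAi-MARS libraries were all below the Col-0 libraries at 0 h, against 6.12% of tested features. At 4 h its log2 difference was 0.20 ± 0.24, with overlapping libraries.

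CBF1 at 4 h averaged 0.632 ± 0.251 CPM in RNAi-MARS and 0.178 ± 0.064 CPM in Col-0 (SD, n = 3 each). The log2 difference was 1.74 ± 0.64 (unadjusted p = 0.0187, adjusted p = 0.50 by edgeR), from 55 and 13 counts. It was the only gene of the 8 with all RNAi-MARS libraries above Col-0 at 4 h (5.92% of tested features showed this). CBF1 passed the filter through RNAi-MARS at 4 h alone, so it could be tested only because that group was high, and neither its p nor that share supports a difference. Its neighbours in the cluster did not separate the genotypes: CBF2 differed by 0.38 ± 0.27 and CBF3 by -0.19 ± 0.37 at 4 h. DDF1 differed by 1.33 ± 0.92, DREB2B by 0.15 ± 0.30 and DREB2C by 0.22 ± 0.75, all with overlapping libraries. Without library C of Col-0 at 4 h the DREB2C difference was 2.07 ± 0.52 (adjusted p = 0.170) and that of DDF1 4.13 (adjusted p = 0.197), while without library A of Col-0 at 4 h DDF1 had 0.67.

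At 0 h the other log2 differences were 0.60 ± 0.33 for CBF2, -0.69 ± 0.99 for CBF3, -1.69 ± 1.36 for CBF1, 1.92 ± 1.83 for DDF1, -0.09 ± 0.43 for DREB2B and -0.51 ± 1.37 for DREB2C. All of these except CBF2 rest on at most 20 counts a group at 0 h. With a library left out, CBF1 ranged from -3.63 to -0.28 and DDF1 from 0.66 to 3.85, called in no case. With the genotype labels permuted within each time, CBF2 came closest over both times, with a mean log2 difference of 0.41 (exact p = 0.06). DDF1 followed with 0.97 (exact p = 0.095), and the other 6 genes gave exact p between 0.15 and 0.78. CBF2 passed the threshold of 0.05 with library totals in place of TMM factors (exact p = 0.035) and when any of 3 libraries was left out, as did DDF1 without library C of Col-0 at 4 h (exact p = 0.025).

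The difference between the responses, tested as an interaction, was called for 0 of 7 genes and for 0 of 22465 features (0.0%) by edgeR. DESeq2 called 4 features, none of them among the 8 genes. The unadjusted p was under 0.05 for DREB2A and CBF1. The DREB2A response was larger in RNAi-MARS by 1.13 ± 0.38 on the log2 scale (unadjusted p = 0.0128, adjusted p = 0.946 by edgeR), and it lay between 0.95 and 1.44 when any library was left out. The CBF1 response was larger by 3.43 ± 1.55 (unadjusted p = 0.0477, adjusted p = 0.946). It ranged from 2.03 without library A of Col-0 at 0 h to 5.37 without library B of RNAi-MARS at 0 h. As CBF1 passed the filter through RNAi-MARS at 4 h alone, its unadjusted p does not support a difference. The others differed by 0.73 ± 1.57 for DREB2C, 0.50 ± 1.02 for CBF3, 0.24 ± 0.53 for DREB2B, -0.22 ± 0.42 for CBF2 and -0.59 ± 1.62 for DDF1. Without library C of Col-0 at 4 h the DREB2C difference was 2.58 (adjusted p = 0.598). The SE values are large for the low genes, so a p above the threshold does not show equal responses.

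The regulators of the CBF genes were changed in part. Of 19 in a list drawn from the literature, 8 were called higher and 3 lower in RNAi-MARS, and 9 higher and 3 lower in Col-0. For this and the lists below, the shares of all tested features were 21.6% higher and 21.0% lower in RNAi-MARS, and 20.7% higher and 19.3% lower in Col-0. Their median log2 change was 0.27 in RNAi-MARS and 0.32 in Col-0, against -0.019 and -0.0045 over all tested features. COR27, a clock-controlled gene that represses CBF expression, rose by 2.35 ± 0.31 in RNAi-MARS and 2.18 ± 0.31 in Col-0 (adjusted p = 0.000138 and 0.000226). AT4G33980 rose by 3.32 ± 0.57 and 3.16 ± 0.55, and PIF3, a light-signalling factor that represses CBF genes, by 1.35 ± 0.15 and 1.52 ± 0.15. COR27 and AT4G33980 had at most 0.41 and 0.42 CPM at 0 h, near the filter level of 0.373 CPM. They were tested through 4 h libraries, so nothing is read from the counts of this list against the shares. The photoreceptor gene PHYB rose by 0.25 ± 0.08 and 0.41 ± 0.08. ICE1, the activator of CBF3 in the cold, had log2 changes of -0.12 ± 0.12 and -0.18 ± 0.12, not called in either genotype (chosen after its values were seen).

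Regulators of DREB2A were listed in the same way. Of 14, 5 were called higher and 2 lower in RNAi-MARS, and 3 higher and 2 lower in Col-0, with median log2 changes of 0.28 and 0.07. In Col-0 that is close to or below the shares of all features (20.7% and 19.3%). HSFA1B, a heat shock factor that activates DREB2A, rose by 1.2 ± 0.10 in RNAi-MARS and 1.16 ± 0.10 in Col-0 (adjusted p = 5.22e-06 and 7.45e-06). DRIP1 and DRIP2, ubiquitin ligases that mark the DREB2A protein for degradation, both fell: DRIP1 had -0.55 ± 0.14 and -0.71 ± 0.15, DRIP2 -0.34 ± 0.12 and -0.44 ± 0.12. AREB1, an ABRE-binding factor, rose by 0.92 ± 0.18 and 0.61 ± 0.18 (adjusted p = 0.00167 and 0.0169).

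Other members of the DREB family moved in both directions. Of 18 listed, 13 were tested, and 8 were called higher and 1 lower in RNAi-MARS, against 7 and 1 in Col-0 (21.6% and 20.7% of all features were called higher). The median log2 change was 0.80 in RNAi-MARS and 0.51 in Col-0. The 7 tested CBF and DREB2 genes had medians of 3.88 and 3.12. Of these, CBF1, CBF3, DDF1, DREB2B and DREB2C passed the filter only through 4 h libraries, so the medians are not compared. AT4G28140 had the largest change, 6.63 ± 1.13 in RNAi-MARS and 6.12 ± 1.24 in Col-0, and ERF53 rose by 3.69 ± 0.66 and 3.83 ± 0.69. At 0 h they had at most 0.12 and 0.249 CPM, below the filter level of 0.373 CPM. DREB2E, called higher in both genotypes, exceeded that level at 0 h in library B of Col-0 alone (0.416 CPM). These family genes were thus tested through 4 h libraries, and nothing is read from the family counts against the shares. CEJ1, a repressor of the family, rose by 1.48 ± 0.40 and 1.84 ± 0.41. AT1G22190 was the one called lower, with -1.09 ± 0.14 and -1.15 ± 0.14 (adjusted p = 0.000119 and 9.80e-05).

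**Figure D5:**
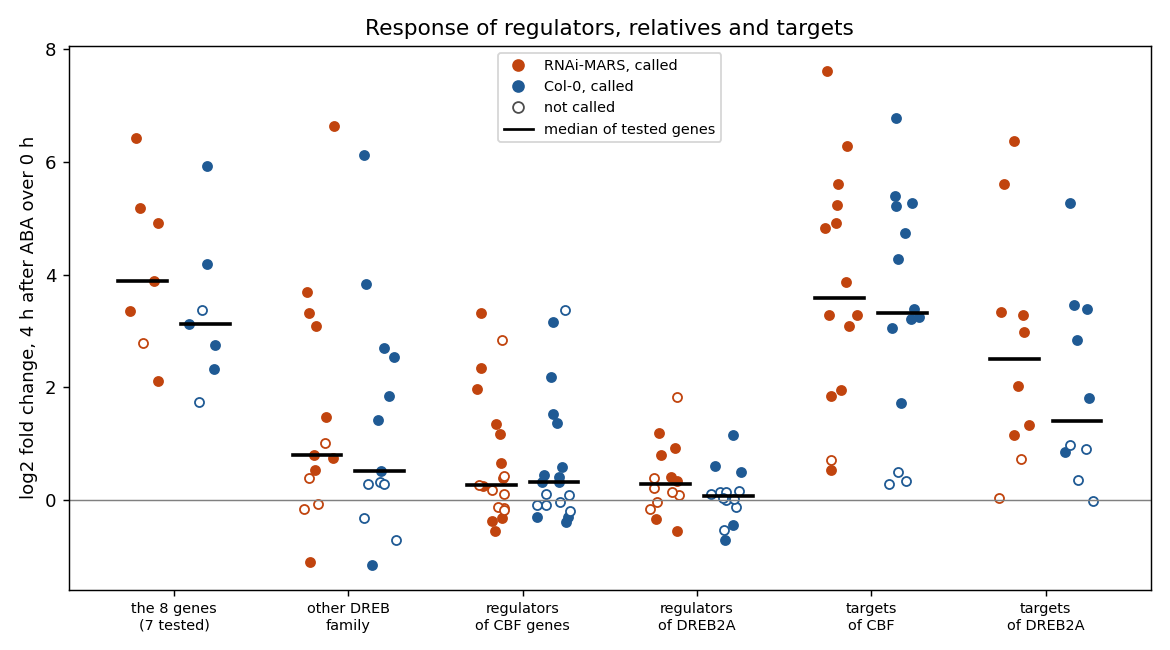
Fitted log2 fold change, 4 h over 0 h, of the tested genes of each list, RNAi-MARS (red) left of Col-0 (blue); filled points have an adjusted p under 0.05 and black lines are medians. The CBF target list has medians of 3.58 and 3.33, and both regulator lists have medians between 0.07 and 0.32.

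Most listed targets of CBF factors rose. Of 14 listed, 13 were called higher in RNAi-MARS and 11 in Col-0, none lower, with median log2 changes of 3.58 and 3.33. RD29A, a stress gene with both DRE and ABRE in its promoter, had 785, 1021 and 1394 CPM in RNAi-MARS at 4 h, against 19.9, 22.9 and 23.1 CPM at 0 h. The Col-0 libraries had 918, 1135 and 919 CPM at 4 h, against 35.2, 22.1 and 19.8 CPM at 0 h. Its log2 change was 5.60 ± 0.28 in RNAi-MARS and 5.27 ± 0.28 in Col-0 (adjusted p = 2.68e-07 and 2.97e-07). The dehydrin LTI30 rose by 4.92 ± 0.28 and 5.21 ± 0.29, COR6.6 by 3.88 ± 0.20 and 3.25 ± 0.19, and COR47 by 3.29 ± 0.25 and 3.39 ± 0.25. Many of these genes are known to answer ABA without CBF factors, and the part of the CBF genes in their rise was not tested.

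Not all CBF targets followed, and the next were named after their values were seen. RAP2.1, a repressor downstream of CBF, had log2 changes of 0.53 ± 0.18 in RNAi-MARS (adjusted p = 0.0297) and 0.29 ± 0.18 in Col-0 (adjusted p = 0.220), and the zinc finger gene STZ was called in neither. GOLS3, a galactinol synthase gene, had 5.36, 3.99 and 2.61 CPM in RNAi-MARS at 4 h, against 1.14, 1.09 and 0.891 CPM at 0 h. In Col-0 the levels were 0.829, 1.40 and 1.33 CPM at 4 h, against 0.847, 0.728 and 1.19 CPM at 0 h. All RNAi-MARS libraries at 4 h were above every other library. The log2 change was 1.95 ± 0.31 in RNAi-MARS (adjusted p = 0.000471) and 0.34 ± 0.33 in Col-0 (adjusted p = 0.433), but the difference of 1.61 ± 0.45 was not called over all features (unadjusted p = 0.00406, adjusted p = 0.946 by edgeR).

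Of 10 listed targets of DREB2A, 8 were called higher in RNAi-MARS and 6 in Col-0, none lower, with median log2 changes of 2.50 and 1.40; RD29A and COR47 are in both target lists. LEA14, a late embryogenesis abundant gene, rose by 2.98 ± 0.17 in RNAi-MARS and 2.84 ± 0.17 in Col-0, and RD29B by 6.37 ± 1.09 and 3.46 ± 0.90 (adjusted p = 0.00115 and 0.0120). HSFA3, the heat shock factor gene that DREB2A and DREB2C activate under heat, had 2.58, 2.65 and 2.95 CPM in RNAi-MARS at 4 h, against 1.84, 2.44 and 3.65 CPM at 0 h. In Col-0 it had 1.97, 1.97 and 3.5 CPM at 4 h, against 2.34, 2.39 and 2.75 CPM at 0 h. The libraries overlapped in both genotypes, with log2 changes of 0.03 ± 0.28 and -0.01 ± 0.28 (named after its values were seen). None of the genes in the regulator, family and target lists was called between genotypes or in the difference between responses by edgeR; at unadjusted p under 0.05 they were 0 to 3 per list.

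Clock genes moved with these changes. Of 12 in the list, 7 were called higher and 4 lower in RNAi-MARS, and 6 higher and 4 lower in Col-0. LHY, a morning gene of the clock, had 16.3, 23.5 and 18 CPM in RNAi-MARS at 4 h, against 367, 404 and 430 CPM at 0 h, and 11, 10.3 and 13.6 CPM in Col-0 at 4 h, against 434, 373 and 432 CPM at 0 h. CCA1 fell by 2.25 ± 0.16 and 2.48 ± 0.16 on the log2 scale, and GI and PRR5, of later phase, rose by 2.47 ± 0.13 and 2.54 ± 0.13, and by 5.74 ± 0.41 and 5.28 ± 0.39. CBF and DREB genes are known to be gated by the clock, and ABA and the time of day cannot be told apart here. Of the 8 touch genes, 2 were called higher and 2 lower in RNAi-MARS and 1 higher in Col-0. The RNAi-MARS counts are near the shares of all features. ZAT12 rose by 1.97 ± 0.49 in RNAi-MARS and 1.36 ± 0.48 in Col-0, where it had 5.12, 5.66 and 19.8 CPM at 4 h, the last in library C. Of the 10 heat shock genes, 7 were called higher and 1 lower in RNAi-MARS, and 4 higher and 1 lower in Col-0, with HSP18.2 at 1.09 ± 0.18 and 1.49 ± 0.18, HSP70 at 1.16 ± 0.25 and 0.85 ± 0.25, and HSFA7A at -1.06 ± 0.34 and -1.31 ± 0.35. AT1G53540 had 4.57 ± 1.21 in RNAi-MARS and 5.09 ± 1.25 in Col-0, where it stood at 0.864, 3.53 and 37.4 CPM at 4 h, again highest in library C, against 0.349, 0.243 and 0.594 CPM at 0 h.

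Tissue markers bore on the same comparisons. Of 7 tested root markers none was called in either genotype, and the sums of all 8 listed were 31.4 to 95.95 CPM in RNAi-MARS at 4 h, 67.9 to 85.3 CPM in RNAi-MARS at 0 h, 47.4 to 61.6 CPM in Col-0 at 4 h and 54.2 to 110 CPM in Col-0 at 0 h. Of 6 shoot markers 3 were called lower in both genotypes (21.0% and 19.3% of all features were), among them RCA, the Rubisco activase gene, with -1.77 ± 0.18 in RNAi-MARS and -1.39 ± 0.18 in Col-0. Not all shoot markers fell. In Col-0 LHCB1.3 averaged 16650 CPM at 4 h and 15310 CPM at 0 h, LHCB2.1 3573 and 3464 CPM, and PSAD1 1725 and 1781 CPM. In RNAi-MARS these genes averaged 16230 and 17380 CPM, 3178 and 3761 CPM, and 1747 and 1846 CPM. The 6 shoot markers summed to 24060 to 35770 CPM in RNAi-MARS at 4 h, 45940 to 50260 CPM in RNAi-MARS at 0 h, 34490 to 36390 CPM in Col-0 at 4 h and 43270 to 54630 CPM in Col-0 at 0 h. No marker of either tissue was at 0 in a whole group. The part of these shifts in the levels of the 8 genes was not tested.

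The genes were also compared by their pattern over the 12 libraries, as a description that mostly reflects the split between times. On log2 CPM, CBF3 and DREB2B had a Pearson r of 0.98, DREB2A and DREB2B 0.97, CBF3 and DREB2A 0.97, and CBF2 and CBF3 0.92. After the group means were taken out, r was 0.67 for DREB2A and DREB2B, 0.61 for DREB2B and DREB2C, 0.61 for DDF1 and DREB2C, and 0.58 for CBF2 and DREB2A. In the cluster, r within groups was 0.21 for CBF1 and CBF2, -0.15 for CBF2 and CBF3 and -0.39 for CBF1 and CBF3. CBF1 and CBF3 had few counts at 0 h, so these values do not show whether the cluster genes move together. These r rest on 12 libraries that share depth and scaling.

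The genes nearest in pattern over the 12 libraries differed from gene to gene. For DREB2A they were AT1G68820, TAG1, an enzyme gene of storage oil synthesis, and ZAT6, a zinc finger gene, at r of 0.99 each. For DREB2B they were NAC047 (0.996), YLS7 (0.994) and MSS1 (0.993), and for DREB2C AT2G32190 (0.99), PMZ and AT1G57540 (0.97 each). CBF2 was nearest to GRP5, AT2G15960 and EBF2, an F-box gene of ethylene signalling, at 0.99 each. CBF3 was nearest to PDC2, a pyruvate decarboxylase gene, AT5G35560 and SKP2B at 0.99 each. CBF1, with few counts, was nearest to AT5G41960 (0.97), BS14A and ATG8B (0.94 each), and DDF1 to AT1G03730, DAD1 (0.93 each) and AT5G27760 (0.92).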

How the data were processed

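Libraries of polyadenylated RNA were made from whole seedlings, 12 in all, per the labels. The authors deposited an estimated count per feature and library, not normalized; tools named in the submitters' processing notes are STAR 2.7.2a, Trimmomatic 0.36 and Subread 1.6.5 with featureCounts, and the build is TAIR10. Settings for strand and for reads matching several places are not given in the sources used here; 5.31% to 7.60% of values per library were not whole. Total counts were 19020202 to 38787804 per library.

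Counts were rounded to whole numbers and fitted in R 4.3.3 with the edgeR 4.0.16 quasi-likelihood F test (robust, TMM, filterByExpr at a minimum count of 10, 1 coefficient per group), 2-sided, checked on simulated counts. p-values were adjusted over all 22465 tested features. The SE was taken as the log2 change over the root of F. DESeq2 1.42.0 and limma 3.58.1 were alternatives. Single genes were tested by exact permutation (scipy 1.17.1) with raw p, since adjusting over a chosen list would not be independent. CPM used a prior count of 2 on the log scale only. Sequences, gene models and names came from RefSeq TAIR10.1. All pairs of libraries of a group differed by more than sampling noise (chi-square per degree of freedom at least 6.55). Named were the 8 genes, up to 4 genes per list with the smallest adjusted p in Col-0, any listed gene called between genotypes, and the 3 nearest genes by r; genes outside this rule are marked as chosen after their values were seen. The genes and lists were chosen with earlier results of these data known.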

Additional observations from a re-analysis of the deposited data

How the results depend on the processing

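Counts of called genes were recomputed under 9 other settings for each response and genotype comparison, 8 for the difference between responses, and with each of the 12 libraries left out. The ABA response had 5 to 7 called genes in RNAi-MARS (6 in the main analysis) and 5 to 6 in Col-0 (5), and both genotype comparisons and the difference between responses had 0 throughout. Over all features, 3808 to 5120 were called higher in RNAi-MARS and 3750 to 4884 in Col-0, with 20305 to 32332 tested. The time effect by permutation passed for 7 to 8 genes. The genotype effect by permutation, 0 genes in the main analysis, passed for 1 with library totals in place of TMM factors and for 0 to 2 with a library left out. Of the results for single genes, 904 kept direction and side of the threshold, 10 came to pass it, 2 no longer did and 18 changed sign. No sign change touched a called value; the cause was not tested. With limma-voom the sign changed for DREB2C between genotypes at 0 h (0.058) and for the DDF1 difference between responses (1.32). With a library left out, log2 differences between genotypes at 0 h ranged from -1.35 to 0.77 for CBF3, -0.36 to 0.40 for DREB2B and -0.95 to 0.41 for DREB2C. At 4 h they ranged from -0.38 to 0.052 for CBF3, -0.012 to 0.43 for DREB2B and -0.22 to 2.07 for DREB2C. The difference between responses ranged from -0.48 to 0.053 for CBF2, -0.96 to 1.16 for CBF3, -2.52 to 2.21 for DDF1, -0.25 to 0.52 for DREB2B and -0.19 to 2.58 for DREB2C. The permutation effect of genotype on DREB2B ranged from -0.041 to 0.21.

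Whether the letters A, B and C pair samples could not be told. Deviations of same-letter libraries correlated at -0.30 to 0.40 in 18 pairs and those of other letters at -0.40 to 0.33. Overlapping ranges of this kind cannot exclude pairing. With the letter as a replicate block the called genes numbered 6 in RNAi-MARS and 5 in Col-0 for the ABA response, and 0 in the other comparisons, and the DREB2A difference between responses was 1.2. Over all features, DESeq2 called 81 between genotypes at 4 h and 30 at 0 h, against 20 by edgeR at each time, a fit of the compared groups alone called 13 and 15, and edgeR called 55 at 4 h without library C of Col-0 at 4 h. Counts of at most 20 a group at 0 h limit CBF1, CBF3, CBF4, DDF1, DREB2B and DREB2C.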
